A study of Mus musculus with 8 samples.

Results

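The urea cycle and the breakdown of amino acids were followed across 44 listed genes in AML12 cells after silencing of Casp8. The genes were listed by name, with earlier results of these data known. All 44 were found among the 34945 named genes of the table, with Mut listed there under its newer symbol Mmut. AML12 is an established mouse hepatocyte line, derived from an animal transgenic for human TGF-alpha. The tested cultures received Casp8 siRNAs (siCasp8, 4 libraries) and the control cultures a scrambled siRNA (Scr, 4 libraries). Both groups had the wild-type genotype label, and both were transfected with a lipid reagent at 40 nM siRNA in multiwell plates and collected after 48 h. The design text calls the 4 cultures of a group biological replicates, and poly-A RNA was sequenced. Casp8 encodes caspase-8, the initiator protease of death receptor signalling. Of the 44 genes, 32 averaged 10 or more across the 8 libraries and were tested, and 12 lay under that mean and are given by their values alone. A gene can reach this mean through siCasp8 alone, as Tdo2 did, so counts over the tested genes are not counts over the whole list.

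The liver is the main site of amino acid breakdown. Aminotransferases move the amino group of most amino acids onto glutamate, glutamate dehydrogenase frees it as ammonia, and the urea cycle turns ammonia into urea for excretion. Glutamine synthetase binds the ammonia that escapes. The carbon skeletons follow routes of their own: phenylalanine and tyrosine through homogentisate, tryptophan through kynurenine, histidine through urocanate, and the branched-chain amino acids through a mitochondrial dehydrogenase complex, with isoleucine and valine going on to propionate and methylmalonate. Methionine is activated to S-adenosylmethionine, and the homocysteine left after methyl transfer can be turned into cysteine by transsulfuration.

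The promoter windows of Hal, its neighbour Amdhd1, Pcbd1, Glul and Gldc are shown, since these genes carry several of the clearest differences reported here and their windows hold none of their own annotated exons. Each is the stretch of 250 bases before the gene's annotated start in RefSeq's GRCm38.p6 table, written 5′ to 3′ on the gene's strand, at chr10:93488518-93488767 (Hal, plus strand), chr10:93540034-93540283 (Amdhd1, minus strand), chr10:61089081-61089330 (Pcbd1, plus strand), chr1:153899679-153899928 (Glul, plus strand) and chr19:30175442-30175691 (Gldc, minus strand). Capitals mark every match on either strand to any of 4 motifs, and matches may overlap one another. The TATA box was searched as TATAAA. The CCAAT box was searched by the letters of its name. For the GC box the letters were GGGCGG. The C/EBP-type motif was spelled TTNNGNAA.
Hal: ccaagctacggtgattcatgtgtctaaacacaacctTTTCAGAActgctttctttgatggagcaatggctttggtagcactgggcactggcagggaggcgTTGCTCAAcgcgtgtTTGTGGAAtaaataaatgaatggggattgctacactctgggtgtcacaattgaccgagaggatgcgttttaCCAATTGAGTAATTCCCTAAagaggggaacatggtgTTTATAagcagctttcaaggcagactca
Amdhd1: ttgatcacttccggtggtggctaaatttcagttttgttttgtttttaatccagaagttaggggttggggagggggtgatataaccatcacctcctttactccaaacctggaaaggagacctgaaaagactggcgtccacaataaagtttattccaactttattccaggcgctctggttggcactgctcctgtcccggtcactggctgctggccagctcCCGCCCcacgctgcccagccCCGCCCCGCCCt
Pcbd1: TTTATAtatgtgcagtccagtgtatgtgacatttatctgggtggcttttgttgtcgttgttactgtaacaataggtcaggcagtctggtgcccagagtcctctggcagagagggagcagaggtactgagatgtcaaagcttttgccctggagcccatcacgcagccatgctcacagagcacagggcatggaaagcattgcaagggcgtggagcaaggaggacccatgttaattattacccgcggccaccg
Glul: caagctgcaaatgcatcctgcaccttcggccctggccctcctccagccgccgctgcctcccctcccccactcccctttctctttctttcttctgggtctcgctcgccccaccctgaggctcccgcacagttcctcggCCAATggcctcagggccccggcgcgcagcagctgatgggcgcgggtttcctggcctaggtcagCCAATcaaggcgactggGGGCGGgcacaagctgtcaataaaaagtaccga
Gldc: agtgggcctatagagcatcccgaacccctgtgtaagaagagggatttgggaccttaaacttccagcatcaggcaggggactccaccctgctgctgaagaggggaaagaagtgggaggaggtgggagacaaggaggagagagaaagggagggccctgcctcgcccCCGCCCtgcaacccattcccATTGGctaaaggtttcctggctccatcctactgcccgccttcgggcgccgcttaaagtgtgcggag
The Hal window held 1 TATA box, 1 CCAAT box and 5 C/EBP-type matches. The Amdhd1 window held 3 GC boxes and the Pcbd1 window 1 TATA box. The Glul window held 2 CCAAT boxes and 1 GC box, and the Gldc window 1 CCAAT box and 1 GC box. Such matches are common: of 27025 promoter windows of that length in the table, 13% held a TATA box, 34.5% a CCAAT box, 32.9% a GC box and 36.9% a C/EBP-type match. Of the 44 genes, 33 had a window, and 7 of these 33 held a TATA box, 18 a CCAAT box, 14 a GC box and 12 a C/EBP-type match. The letters CAAAGTCCA, an HNF4-type motif, were found in 0.381% of all windows and in 0 of the 33.

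Casp8 itself was 1374, 1431, 1627 and 1490 in the siCasp8 libraries, against 3936, 3995, 4134 and 3825 in the Scr libraries, in the deposited normalized unit. The siCasp8 mean of 1480 ± 108 was 37.3% of the Scr mean of 3972 ± 129 (SD, n = 4 each; exact two-sided permutation p = 0.0286, the smallest that 4 against 4 libraries allow). Sequencing depth, estimated from the low values, was 50.5 to 57.1 M reads in siCasp8 libraries and 30.7 to 51.8 M reads in Scr libraries (exact p = 0.0571), so depth moved with the groups. Over the 14154 tested genes, on the log2(value + 1) scale, correlations between libraries were 0.987 to 0.994 within a group and 0.979 to 0.986 between groups. Among markers of the hepatocyte, 7 of the 11 tested rose and 2 fell, where 19.4% of all tested genes rose and 20.8% fell. The list summed to 91538 to 93991 in siCasp8 libraries and 72736 to 78358 in Scr libraries. Albumin averaged 3626 ± 249 in siCasp8 and 86.4 ± 10.7 in Scr, while Apoa2, Apoc3 and Cyp2e1 were at or near 0 in both groups, so the line lacks some defining hepatocyte transcripts. The cholangiocyte markers Krt7, Krt19, Sox9 and Spp1 were present and Epcam was near 0. Of that list, 2 of 6 tested rose and 4 fell, beside the same 19.4% and 20.8% of all tested genes. The list summed to 130829 to 138392 in siCasp8 and 118188 to 126734 in Scr. Most of that sum was Spp1, at 104055 ± 3658 in siCasp8 and 89795 ± 3642 in Scr. Aqp1 fell most, averaging 1923 ± 153 in siCasp8 and 3759 ± 181 in Scr. Adgre1 and Clec4f (macrophage) and Cdh5 and Lyve1 (endothelium) were listed at 0. The summed markers were 579 to 654 in siCasp8 and 781 to 849 in Scr for macrophages, 178 to 301 in siCasp8 and 186 to 536 in Scr for endothelium, 96.2 to 179 in siCasp8 and 117 to 182 in Scr for stellate cells, and 112 to 138 in siCasp8 and 284 to 407 in Scr for kidney tubule. The macrophage difference lay in Csf1r, at 347 ± 29.4 in siCasp8 and 569 ± 30.1 in Scr, while Cd68 and Ptprc did not pass. The kidney tubule difference lay in Pax8, at 96.5 ± 12.6 in siCasp8 and 308 ± 60.1 in Scr. Lrp2, at 22.6 ± 2.69 in siCasp8 and 17.4 ± 3.93 in Scr, did not pass. Of the stellate cell list 2 genes were tested, and 1 rose and 1 fell, beside 19.4% and 20.8% of all tested genes. Des rose, from 12.1 ± 8.24 in Scr to 45.3 ± 22.6 in siCasp8, without overlap. Col1a1 fell, from 117 ± 22.2 in Scr to 77.9 ± 23.9 in siCasp8, with overlapping groups. The part of these marker differences in the results was not tested.

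Of the 32 tested genes, 17 passed limma's moderated test at an adjusted p under 0.05: 13 rose in siCasp8 and 4 fell. This is 53.1% of the tested genes of the list, beside 40.2% of the 14154 genes tested in all; 40.6% rose, beside 19.4%, and 12.5% fell, beside 20.8%. The siCasp8 and Scr values did not overlap for 11 of the 32 (34.4%), 8 higher and 3 lower in siCasp8, beside 37.5% of all tested genes. The median difference, siCasp8 minus Scr on the log2(value + 1) scale, was 0.14 for the 32 genes and 0.00 for all genes, and the median absolute difference was 0.21 and 0.16. A rise of at least 0.3 was seen for 6 genes, Tdo2, Hal, Cbs, Mat1a, Pcbd1 and Glul, where 9.83% of all genes rose that far. A fall of at least 0.3 was called for Dbt alone, where 9.93% of all genes fell that far. With estimated depth as a covariate 9 of the 32 were called (28.1%, beside 18.5% of all genes in that fit), 6 higher and 3 lower (8.52% and 9.95% of all genes), and Amt, Asl, Bckdha, Bckdhb, Gpt, Mat1a, Oat and Pccb were no longer called. Without siCasp8 replicate 2 the number that rose was 8, with Asl, Gpt, Bckdha, Amt and Mat1a no longer called. Rescaling by the upper quartile gave 16 higher and 3 lower of the 32, with 4475 higher and 1665 lower among all genes, against 2739 higher and 2950 lower as deposited. Bulk RNA cannot tell fewer expressing cells from less RNA per cell.

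**Figure D1:**
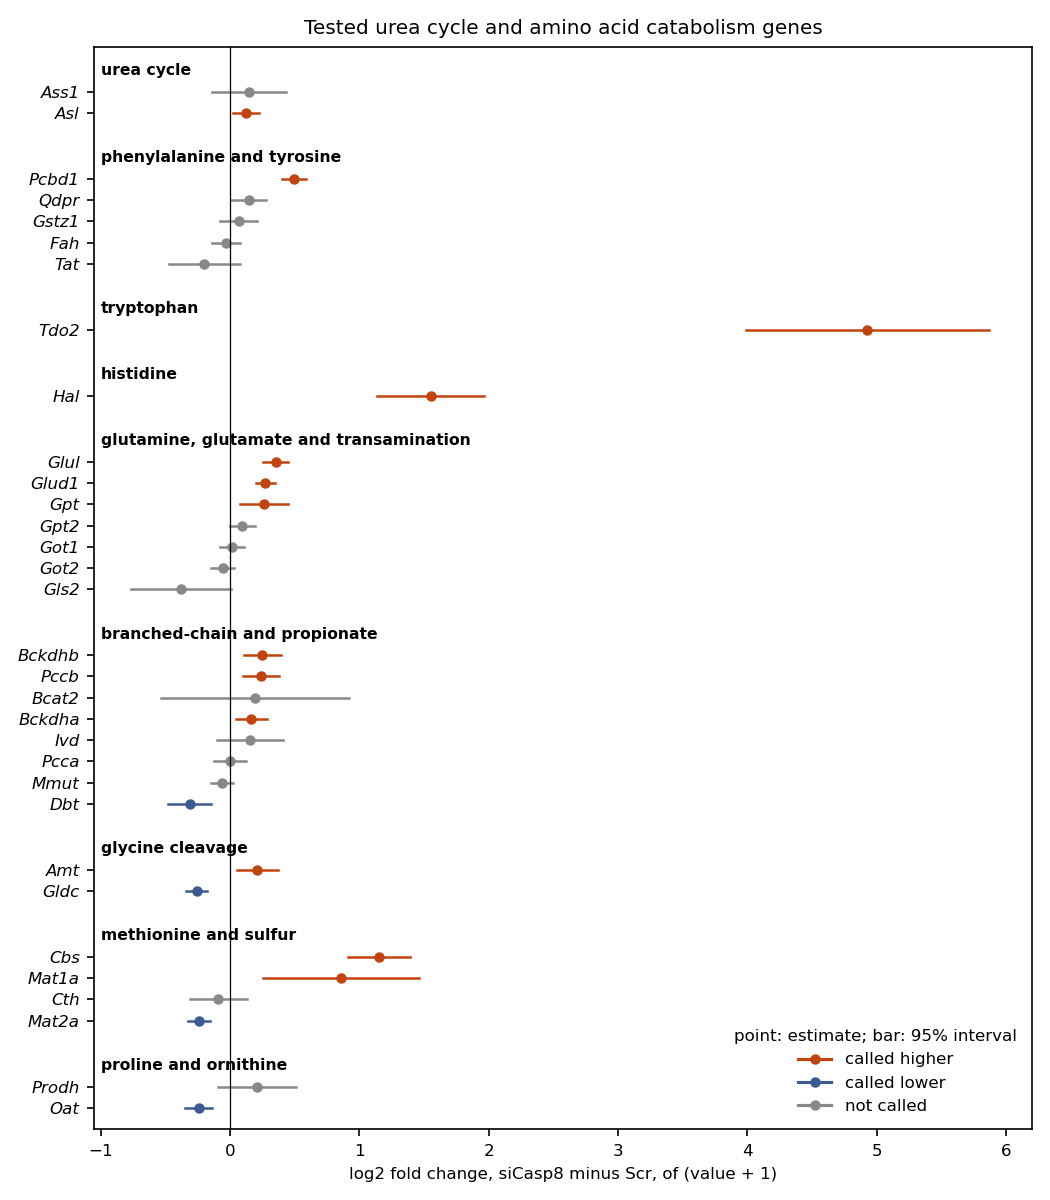
Differences of the 32 tested genes of urea synthesis and amino acid breakdown, siCasp8 minus Scr on the log2(value + 1) scale, with 95% confidence intervals from limma, grouped by route. Tdo2 at 4.93 and Hal at 1.55 lie farthest to the right, followed by Cbs at 1.15 and Mat1a at 0.86, and the other genes shown lie within 0.5 of 0.

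The urea cycle was nearly silent in both groups, apart from its middle steps. Cps1, the mitochondrial carbamoyl phosphate synthetase that feeds ammonia into the cycle, was 1.75, 0.784, 1.71 and 2.32 in siCasp8 libraries and 0, 1.47, 2.38 and 0 in Scr libraries. A single read is worth 0.773 to 1.47 in these libraries, so Cps1 stood at a few reads each. Otc, which joins carbamoyl phosphate to ornithine, was at most 2.41 in siCasp8 and 1.22 in Scr. Arg1, the arginase of liver that releases urea, was at most 1.84 in siCasp8 and 1.39 in Scr, and the mitochondrial arginase Arg2 at most 1.71 in siCasp8 and 4.43 in Scr. Nags, which makes the activator of Cps1, was above 0 in 1 library of each group. No difference could be read at these levels.

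The exceptions were the enzymes that make and split argininosuccinate. Ass1, the synthetase, averaged 115 ± 14.8 in siCasp8 and 104 ± 8.95 in Scr, a difference of 0.14 (95% interval -0.14 to 0.43, limma adjusted p = 0.418) that did not pass. Asl, the lyase, was 2264, 2208, 2114 and 2112 in siCasp8 and 1985, 1916, 1939 and 2140 in Scr. It was called higher by 0.13 (SE 0.0467, limma adjusted p = 0.0495), yet Scr replicate 4 lay above 2 siCasp8 libraries, and the call held in 7 of 17 settings. It was lost when any library except Scr replicate 4 was left out (adjusted p = 0.0567 to 0.138). Per kilobase of transcript, the level of Asl was 1041 in siCasp8 and 955 in Scr, and that of Ass1 68.1 in siCasp8 and 61.3 in Scr. The other 5 genes of the cycle lay below 1.5 per kilobase in both groups. Among carriers and regulators of the cycle, Slc25a15, the mitochondrial ornithine carrier, averaged 964 ± 23.1 in siCasp8 and 839 ± 40.0 in Scr and rose by 0.20 (limma adjusted p = 0.00913). Sirt5, the mitochondrial deacylase known to act on Cps1, averaged 779 ± 17.9 in siCasp8 and 568 ± 79.1 in Scr and rose by 0.47 (limma adjusted p = 0.00102). Both calls were lost with depth as a covariate. The difference was then 0.24 for Slc25a15 (limma adjusted p = 0.0793) and 0.33 for Sirt5 (0.125).

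**Figure D2:**
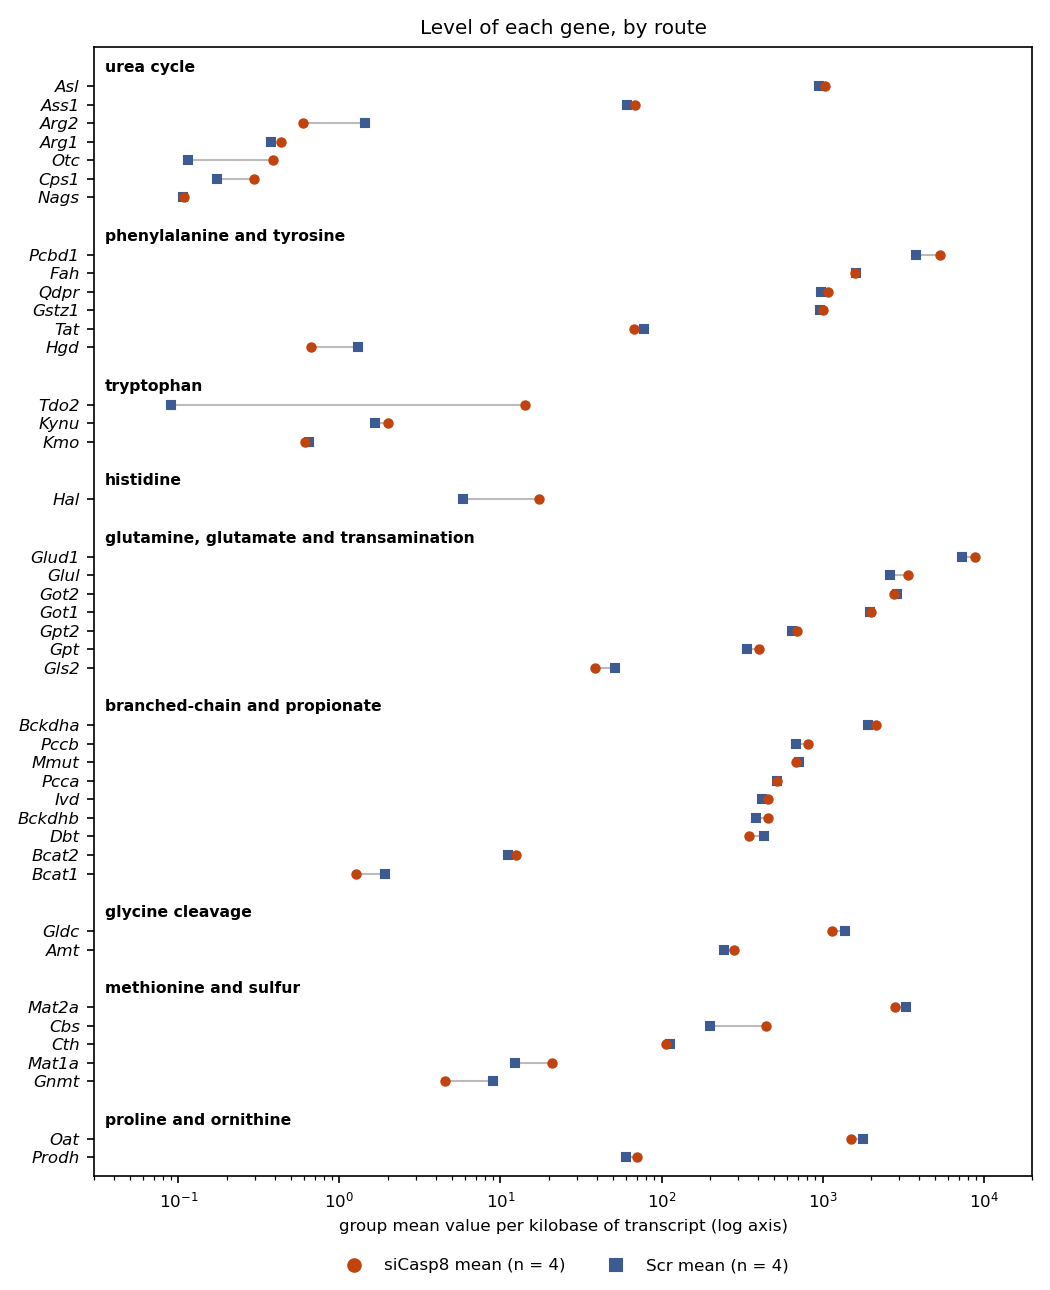
Mean level per kilobase of transcript (log axis) in siCasp8 and Scr, grouped by route, of the listed genes with a value above 0 (Hpd and Haao are left out). Glud1 stands highest, at 8850 in siCasp8 and 7324 in Scr, while Cps1, Otc, Arg1 and Nags in both groups and Tdo2 in Scr lie below 0.5.

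Tryptophan breakdown differed at its entry. Tdo2 (chr3:81957090-81976202), the heme enzyme that opens the ring of tryptophan, was 50.1, 32.5, 27.5 and 32.4 in the siCasp8 libraries, against 0, 0.904, 0 and 0 in the Scr libraries. Every siCasp8 library held the transcript and 3 of 4 Scr libraries did not. The latter include Scr replicate 4, whose 51.8 M reads lay within the 50.5 to 57.1 M reads of the siCasp8 libraries. In reads this is about 173 of 216 M in siCasp8 and 1 of 152 M in Scr, a ratio of 122 with a 95% interval of 21.6 to 4839 that covers counting error only. On the log2(value + 1) scale the difference was 4.93 (SE 0.432, limma adjusted p = 2.62e-06), and it ranged from 2.38 to 5.77 over the settings, with the pseudocount moving it most. Even in siCasp8 the level was low, at 14.1 per kilobase. The later enzymes of the route were at or near the floor: Kmo, which hydroxylates kynurenine, was at most 6.43 in siCasp8 and 3.80 in Scr, Kynu, the kynureninase, averaged 5.48 ± 3.39 in siCasp8 and 4.53 ± 2.61 in Scr, and Haao, which makes the precursor of quinolinate, was listed at 0 in every library. Afmid, the formamidase that follows Tdo2, averaged 827 ± 20.7 in siCasp8 and 735 ± 38.2 in Scr and rose by 0.17 (limma adjusted p = 0.0295). The kynurenine aminotransferases Kyat1 and Kyat3 rose by 0.30 (adjusted p = 0.0184) and 0.53 (adjusted p = 0.00554) in the same limma fit. With depth as a covariate the calls of Afmid, Kyat1 and Kyat3 were lost (adjusted p = 0.0795, 0.640 and 0.606). In that fit the difference was 0.25 for Afmid, 0.11 for Kyat1 and 0.14 for Kyat3. The call of Afmid was also lost when any library but siCasp8 replicate 3 or Scr replicate 2 or 3 was left out (0.0504 to 0.0872), and that of Kyat1 without siCasp8 replicate 1 or 2 (0.0523 and 0.059).

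Histidine breakdown rose at the steps before and after urocanate hydration. Hal, the histidine ammonia-lyase, was 112, 80.7, 84.6 and 91.9 in siCasp8 libraries, against 29.5, 25.1, 41.0 and 28.9 in Scr libraries. All siCasp8 values lay above all Scr values, and the mean of 92.4 ± 14.1 in siCasp8 was 297% of the mean of 31.2 ± 6.88 in Scr (SD, n = 4 each), a rise of 1.55 (SE 0.191, limma adjusted p = 4.22e-05). Amdhd1, the imidazolonepropionase that acts after urocanate hydration, was 192, 145, 144 and 127 in siCasp8, against 28.8, 33.9, 49.8 and 33.9 in Scr. The groups again did not overlap, and Amdhd1 rose by 2.03 (SE 0.191, limma adjusted p = 4.54e-06). In the GRCm38 annotation the genes are neighbours on opposite strands of chromosome 10, Hal at chr10:93488768-93519304 and Amdhd1 at chr10:93523338-93540033, with their 3′ ends 4033 bases apart. The promoter windows printed above therefore lie at the outer ends of the pair, and none of the motifs searched was found in both. Both calls held with depth as a covariate. The enzymes between and after them did not pass: Uroc1, the urocanate hydratase, averaged 4.62 ± 2.74 in siCasp8 and 6.66 ± 1.59 in Scr, under the mean needed for a test, and Ftcd, which hands the last carbon to folate, averaged 19.4 ± 5.92 in siCasp8 and 15.01 ± 3.92 in Scr (limma adjusted p = 0.419).

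**Figure D3:**
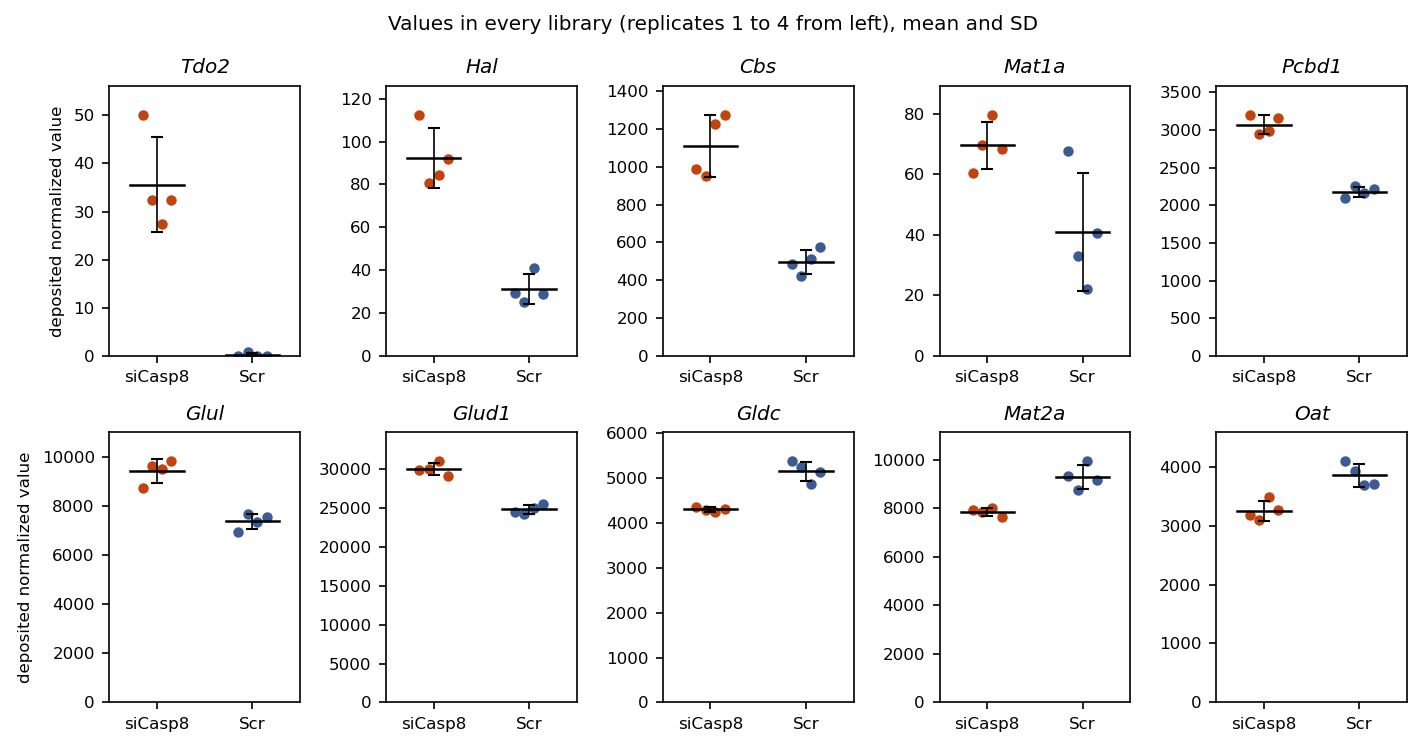
Deposited normalized value in each of the 4 siCasp8 and 4 Scr libraries for genes with a panel of their own, with the group mean as a line and the SD as a bar. For Tdo2, Hal, Cbs, Pcbd1, Glul, Glud1, Gldc, Mat2a and Oat the siCasp8 points do not overlap the Scr points, while for Mat1a they do.

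Of 5 tested genes of phenylalanine and tyrosine breakdown, the 1 that passed serves the cofactor (20% called, beside 40.2% of all genes). Pcbd1, the dehydratase that recycles tetrahydrobiopterin, was 3199, 2948, 2983 and 3157 in siCasp8 libraries and 2100, 2252, 2162 and 2213 in Scr libraries. The lowest siCasp8 library stood well above the highest Scr library, with a rise of 0.49 (SE 0.0422, limma adjusted p = 2.17e-06). Per kilobase its level, 5342 in siCasp8 and 3794 in Scr, was among the highest of the 44. Qdpr, the reductase that completes the recycling, averaged 1327 ± 107 in siCasp8 and 1199 ± 57.1 in Scr and did not pass (limma adjusted p = 0.0903), although it did without siCasp8 replicate 3 (0.0237) and after upper quartile rescaling (0.0117). Of the 3 enzymes that make the cofactor anew, 2 rose. Gch1, the rate-limiting cyclohydrolase, was 751, 704, 794 and 723 in siCasp8 and 337, 379, 447 and 409 in Scr, a rise of 0.92 (SE 0.0859, limma adjusted p = 4.21e-06) with no overlap. Pts, the synthase that follows, averaged 2496 ± 71.9 in siCasp8 and 1936 ± 107 in Scr and rose by 0.37 (limma adjusted p = 5.88e-05). Spr, the reductase of the last step, averaged 3177 ± 185 in siCasp8 and 2854 ± 288 in Scr and did not pass (limma adjusted p = 0.0804), although it did without siCasp8 replicate 3 (0.0485) or Scr replicate 2 (0.0121) and after upper quartile rescaling (0.00897). The calls of Pcbd1, Gch1 and Pts held with depth as a covariate.

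The enzymes that take tyrosine apart did not pass the test. Tat, the tyrosine aminotransferase, averaged 161 ± 21.8 in siCasp8 and 184 ± 20.6 in Scr, a difference of -0.20 (95% interval -0.47 to 0.08). Gstz1, the maleylacetoacetate isomerase, differed by 0.07 (95% interval -0.08 to 0.21) and Fah, the fumarylacetoacetate hydrolase, by -0.03 (-0.14 to 0.07). Fah was well expressed, at 2510 ± 94.1 in siCasp8 and 2568 ± 149 in Scr. The steps between Tat and Gstz1 were missing or nearly so, with Hpd listed at 0 in every library and Hgd, the homogentisate dioxygenase, at 0.472 to 1.57 in siCasp8 and 1.76 to 2.64 in Scr, a few reads per library. Mif, a cytokine that also tautomerizes phenylpyruvate-like compounds, fell by 0.27 (limma adjusted p = 0.00937), a call lost with depth as a covariate (adjusted p = 0.395) and after upper quartile rescaling (0.0592).

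Genes that handle glutamate, glutamine and ammonia were all tested, and 3 of 7 rose (42.9% called, beside 40.2% of all genes), of which Gpt was lost with depth as a covariate. Glul, the glutamine synthetase, was 8741, 9634, 9534 and 9829 in siCasp8 and 6945, 7675, 7349 and 7553 in Scr. The groups did not overlap, and Glul rose by 0.35 (SE 0.0444, limma adjusted p = 5.04e-05). Glud1, the mitochondrial glutamate dehydrogenase, was the most abundant of the 44 per kilobase and was 29848, 30003, 30992 and 29169 in siCasp8 and 24528, 24226, 25000 and 25560 in Scr. Its rise of 0.27 (SE 0.0325, limma adjusted p = 3.29e-05) was small against its level, and no Scr library reached the lowest siCasp8 library. Exons of Glul overlap those of Teddm2 on the opposite strand, and no source used here says whether strand was used in counting. Other genes named here overlap annotated genes too, among them Gls2 (Spryd4) and Aldh6a1 (Bbof1) on the opposite strand. Exons of Afmid overlap those of Gm20708 on the same strand and Tk1 on the opposite strand. Gls2, the liver-type glutaminase, which releases ammonia from glutamine, averaged 99.6 ± 11.6 in siCasp8 and 132 ± 35.7 in Scr, a difference of -0.38 (95% interval -0.76 to 0.01, limma adjusted p = 0.112) that did not pass.

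Among the alanine and aspartate aminotransferases, 1 of 4 rose, where 19.4% of all tested genes rose. Gpt, the cytosolic alanine aminotransferase, averaged 562 ± 52.4 in siCasp8 and 468 ± 44.3 in Scr and rose by 0.26 (limma adjusted p = 0.0283), with overlapping groups. The call was lost without siCasp8 replicate 2 (adjusted p = 0.0952), whose value was the highest, and without Scr replicate 2, 3 or 4 (0.0524 to 0.0799). Gpt2, its mitochondrial counterpart, averaged 2513 ± 44.7 in siCasp8 and 2353 ± 128 in Scr and did not pass (limma adjusted p = 0.109), although it did after upper quartile rescaling (0.00305). The aspartate aminotransferases Got1 and Got2 differed by 0.02 (95% interval -0.08 to 0.11) and -0.06 (-0.15 to 0.03), so changes beyond 0.15 on the log2 scale lay outside both intervals. Got1 was called higher after upper quartile rescaling (adjusted p = 0.0368).

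In methionine and sulfur metabolism the transsulfuration enzyme Cbs stood out. Cbs (chr17:31608894-31637238), cystathionine beta-synthase, which joins homocysteine and serine, was 986, 949, 1226 and 1274 in siCasp8 libraries, against 485, 422, 511 and 573 in Scr libraries. The mean of 1108 ± 165 in siCasp8 was 223% of the mean of 498 ± 62.6 in Scr, a rise of 1.15 (SE 0.111, limma adjusted p = 5.52e-06). Cth, cystathionine gamma-lyase, which makes cysteine in the next step, averaged 193 ± 17.7 in siCasp8 and 205 ± 13.9 in Scr, a difference of -0.09 (95% interval -0.31 to 0.13) that did not pass. The genes that make S-adenosylmethionine went opposite ways. Mat2a, the form of most tissues and growing cells, was 7954, 7858, 8022 and 7632 in siCasp8 and 9334, 8742, 9940 and 9189 in Scr, with no overlap and a fall of 0.24 (limma difference -0.24, SE 0.0404, adjusted p = 0.00047). Mat1a, the form of adult liver, was 60.5, 69.8, 79.7 and 68.3 in siCasp8 and 67.8, 33.2, 22.1 and 40.7 in Scr. It was called higher by 0.86 (SE 0.278, limma adjusted p = 0.0271), but Scr replicate 1 lay within the siCasp8 values and the call held in 10 of 17 settings. It was lost without siCasp8 replicate 2, 3 or 4 or Scr replicate 2 or 3 (adjusted p = 0.0532 to 0.0709). Gnmt, the glycine methyltransferase that uses up S-adenosylmethionine in liver, averaged 4.69 ± 2.75 in siCasp8 and 9.27 ± 4.82 in Scr and was not tested. Exons of Mat2a overlap the Particl transcript on the opposite strand.

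Of 10 further sulfur genes tested 2 rose and 1 fell, with 19.4% of all genes higher and 20.8% lower. Mpst, the mercaptopyruvate sulfurtransferase, averaged 1970 ± 60.1 in siCasp8 and 1311 ± 76.6 in Scr, a rise of 0.59 (limma adjusted p = 2.15e-06). Sqor, the sulfide quinone oxidoreductase of mitochondria, averaged 1377 ± 56.5 in siCasp8 and 949 ± 98.2 in Scr, a rise of 0.54 (limma adjusted p = 6.23e-05). Neither gene's groups overlapped, and both calls held with depth as a covariate. Of the other sulfur genes, Mat2b, the regulatory subunit for Mat2a, fell by 0.11 (limma difference -0.11, adjusted p = 0.0214; 0.285 with depth as a covariate and 0.887 after upper quartile rescaling), and was not called without siCasp8 replicate 1, 2 or 4 (0.0544 to 0.0644). Ahcy, the hydrolase that frees homocysteine, averaged 4632 ± 96.9 in siCasp8 and 4844 ± 171 in Scr and did not pass (limma adjusted p = 0.188).

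The glycine cleavage system had calls in both directions, of which only the fall of Gldc held in every setting. Gldc, its decarboxylase, was 4370, 4297, 4249 and 4323 in siCasp8 and 5377, 5246, 4874 and 5141 in Scr. The siCasp8 libraries lay close together and below every Scr library, and Gldc fell by 0.26 (limma difference -0.26, SE 0.0371, adjusted p = 0.000146). Amt, the aminomethyltransferase, averaged 591 ± 51.0 in siCasp8 and 509 ± 14.8 in Scr and rose by 0.21 (limma adjusted p = 0.0342), with overlapping groups. It was no longer called when any library but siCasp8 replicate 3 or Scr replicate 3 was left out (0.0586 to 0.108). Its call was also lost with depth as a covariate. Gcsh, the lipoate-bearing carrier protein, averaged 2112 ± 27.4 in siCasp8 and 1840 ± 129 in Scr and rose by 0.20 (limma adjusted p = 0.00673). With depth as a covariate its difference was 0.22 and was not called (limma adjusted p = 0.101). Dld, the shared dihydrolipoamide dehydrogenase, differed by 0.01 (95% interval -0.09 to 0.11). Sdsl, a serine dehydratase-like enzyme, rose by 0.47 (limma adjusted p = 0.000595; 0.0522 with depth as a covariate).

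In branched-chain and propionate breakdown 3 of 8 tested genes were higher and 1 lower, 50% called beside 40.2% of all genes, and none of the 3 rises was called with depth as a covariate. Of the complex that commits the keto acids to oxidation, the subunit genes Bckdha and Bckdhb rose and Dbt fell. Bckdha averaged 4064 ± 185 in siCasp8 and 3634 ± 277 in Scr, a rise of 0.16 (limma adjusted p = 0.0304) with overlapping groups, which was lost when any library but siCasp8 replicate 3 or Scr replicate 2 was left out (0.0546 to 0.0819). Bckdhb averaged 675 ± 35.0 in siCasp8 and 568 ± 34.6 in Scr, a rise of 0.25 (limma adjusted p = 0.00992) without overlap. Dbt, the transacylase core, was 1073, 1152, 1118 and 1246 in siCasp8 and 1362, 1243, 1623 and 1496 in Scr, a fall of 0.31 (limma difference -0.31, SE 0.078, adjusted p = 0.00664). Its siCasp8 replicate 4 lay just above Scr replicate 2, and its adjusted p was 0.0597 after rescaling by the upper quartile. The aminotransferases upstream were low, with Bcat2 at 21.4 ± 5.89 in siCasp8 and 19.3 ± 7.36 in Scr, and Bcat1 at most 9.75 in siCasp8 and 8.58 in Scr. Ivd, the isovaleryl-CoA dehydrogenase of leucine breakdown, averaged 1687 ± 57.2 in siCasp8 and 1543 ± 342 in Scr and did not pass (limma adjusted p = 0.329), the Scr libraries running from 1230 to 1971. Without Scr replicate 3, the highest of them, Ivd was called higher (adjusted p = 0.0222).

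At the propionate end, the carboxylase subunit genes differed in outcome. Pccb averaged 1821 ± 118 in siCasp8 and 1543 ± 114 in Scr and rose by 0.24 (limma adjusted p = 0.00903). Pcca averaged 1359 ± 99.1 in siCasp8 and 1359 ± 47.9 in Scr, a difference of -0.00 (95% interval -0.12 to 0.12). Mmut, the methylmalonyl-CoA mutase, averaged 2525 ± 51.0 in siCasp8 and 2643 ± 85.4 in Scr and did not pass (limma adjusted p = 0.204). Of 16 further branched-chain genes, 8 rose and 2 fell (62.5% called, beside 40.2% of all genes). Aldh6a1, which oxidizes methylmalonate semialdehyde, averaged 1388 ± 51.0 in siCasp8 and 1020 ± 40.3 in Scr and rose by 0.44 (limma adjusted p = 1.96e-05). Acadsb, the short/branched-chain acyl-CoA dehydrogenase of isoleucine breakdown, went the other way: it was 2920, 2808, 3185 and 3088 in siCasp8 and 5169, 4547, 4931 and 4336 in Scr, a fall of 0.66 (limma difference -0.66, SE 0.0581, adjusted p = 2.72e-06). No Acadsb value in siCasp8 came near the Scr range. Mmab, an adenosyltransferase for the cobalamin cofactor of Mmut, fell by 0.16 (limma difference -0.16, adjusted p = 0.0401; 0.155 with depth as a covariate and 0.495 after upper quartile rescaling), and was not called when any library but Scr replicate 3 was left out (0.0517 to 0.113).

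Of the 2 tested genes of proline and ornithine breakdown, 1 fell, where 20.8% of all tested genes fell. Oat, the ornithine aminotransferase, was 3178, 3093, 3484 and 3265 in siCasp8 and 4090, 3930, 3686 and 3702 in Scr. The groups did not overlap, with a fall of 0.24 (limma difference -0.24, SE 0.0479, adjusted p = 0.00149), and this call was lost with depth as a covariate (adjusted p = 0.186). Prodh, the proline dehydrogenase, averaged 143 ± 22.8 in siCasp8 and 123 ± 13.0 in Scr and did not pass (limma adjusted p = 0.265). Of 9 polyamine genes, which draw on ornithine, 0 rose and 4 fell, 44.4% called beside 40.2% of all genes. Odc1, the ornithine decarboxylase, averaged 5761 ± 143 in siCasp8 and 7053 ± 159 in Scr, a fall of 0.29 (limma difference -0.29, adjusted p = 2.38e-05). Azin1, which shields Odc1 from its antizyme, averaged 4661 ± 378 in siCasp8 and 6145 ± 354 in Scr, a fall of 0.40 (limma difference -0.40, adjusted p = 0.00016). Srm, the spermidine synthase, and Sms, the spermine synthase, fell by 0.34 and 0.18 (limma adjusted p = 0.000961 and 0.0313). The calls of Odc1 and Azin1 held with depth as a covariate, while those of Srm and Sms were lost (adjusted p = 0.211 and 0.520). After upper quartile rescaling Odc1, Azin1 and Srm were still called lower and Sms was not (adjusted p = 0.275). The call of Sms was also lost without siCasp8 replicate 1 or 4 or Scr replicate 1, 2 or 3 (0.0554 to 0.0997).

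Further genes of proline and lysine breakdown moved in both directions. Prodh2, the hydroxyproline dehydrogenase, averaged 1203 ± 50.6 in siCasp8 and 911 ± 66.9 in Scr and rose by 0.40 (limma adjusted p = 0.000211). Pipox, the peroxisomal oxidase of pipecolate and sarcosine, averaged 698 ± 19.0 in siCasp8 and 470 ± 34.5 in Scr and rose by 0.57 (limma adjusted p = 3.02e-05). Dlst, a core subunit of oxoglutarate dehydrogenase, fell by 0.23 (limma difference -0.23, adjusted p = 0.000282), and Dhtkd1, which acts on oxoadipate, rose by 0.26 (adjusted p = 0.0397; 0.840 with depth as a covariate). The call of Dhtkd1 was also lost without siCasp8 replicate 2, 3 or 4 or Scr replicate 1 or 2 (0.0773 to 0.108).

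Over all 76 further genes of these routes, 68 were tested, of which 26 rose and 10 fell in siCasp8, 52.9% in all beside 40.2% of all tested genes. With upper quartile scaling the counts were 30 higher and 6 lower. The median difference was 0.09. By route, 7 of 11 tested tryptophan, tyrosine and histidine genes rose and 1 fell, 2 of 10 sulfur genes rose and 1 fell, and 3 of 9 proline, glutamine and asparagine genes rose and 1 fell. With depth as a covariate 15 of the 68 were called (22.1%, beside 18.5% of all genes in the same fit), 10 higher and 5 lower.

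**Figure D4:**
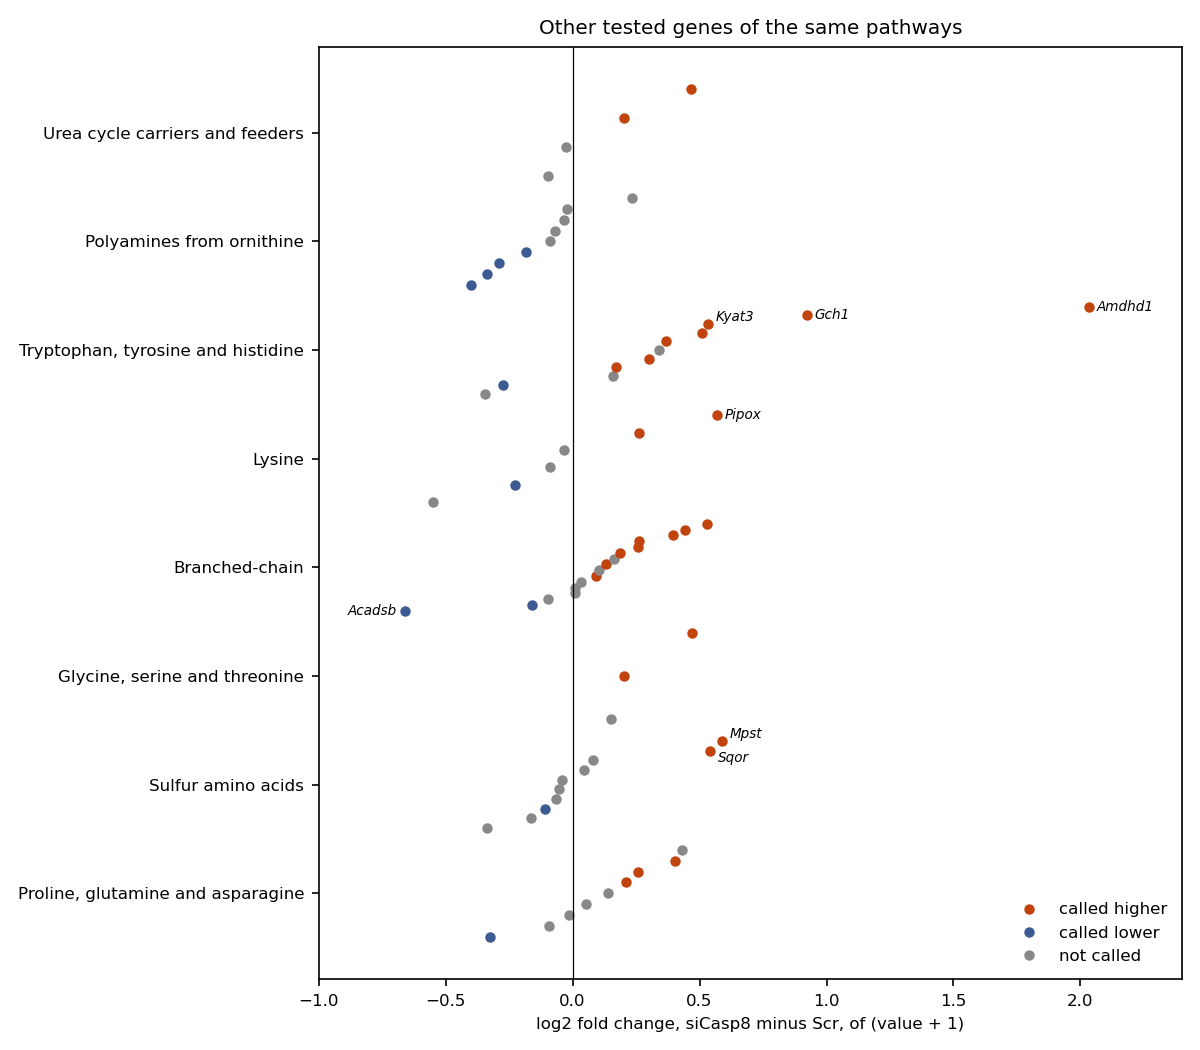
Differences of the 68 tested further genes of the same routes, siCasp8 minus Scr on the log2(value + 1) scale, by sub-list. Amdhd1 at 2.03 and Gch1 at 0.92 lie farthest to the right and Acadsb at -0.66 farthest to the left.

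Log2 ratios of value + 1 within a library are little affected by how the library was scaled where both genes are high, and more so where 1 is low, as for Mat1a. Of 10 partner pairs 8 could be tested, and 0 passed an exact two-sided permutation test with Benjamini-Hochberg adjustment over the 8, while 3 had an unadjusted p under 0.05. Those 3 were at 0.0286, the smallest that 70 arrangements allow, and at least 5 pairs would have had to reach it for any to pass. The log2 ratio of Cbs to Cth averaged 2.51 ± 0.305 in siCasp8 and 1.27 ± 0.206 in Scr, a difference of 1.24 (SE 0.184, exact adjusted p = 0.0762). The log2 ratio of Mat1a to Mat2a averaged -6.81 ± 0.156 in siCasp8 and -7.90 ± 0.685 in Scr, a difference of 1.10 (SE 0.351, exact adjusted p = 0.0762). In both of these pairs the siCasp8 libraries did not overlap the Scr libraries. For Got1 to Got2, Gpt to Gpt2, Bckdha to Bckdhb and Pcca to Pccb the groups overlapped, with differences from -0.24 to 0.17.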

How the data were processed

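Poly-A RNA of 8 AML12 libraries was measured, 4 siCasp8 and 4 Scr, grouped by their titles. The authors deposited 1 table of a normalized signal per gene symbol, per the labels from kallisto estimates. Tools listed in the submitters' processing notes are kallisto 0.44.0, bcl2fastq 2.19, DESeq2 and sleuth, and builds GRCm38 and GRCh38, with no role for any. No source used here gives the annotation, the summing of transcripts to genes or the use of strand. A line without a symbol held 0.0481% to 0.0631% of each library and was left out. Low values were whole multiples of 1 read within 0.1 read for 63.2% to 75.2% of values up to 20 reads. Whole reads were therefore not recovered, no count test was run, and depth (30.7 to 57.1 M reads) was estimated from the value of 1 read.

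The 14154 genes averaging 10 or more were tested in R 4.3.3 with limma 3.58.1 (moderated test with a mean-variance trend, two-sided, Benjamini-Hochberg adjustment over all 14154) on log2(value + 1), a scale on which changes of low genes come out too small. A call is an adjusted p under 0.05. Group values are mean ± SD over 4 libraries in the deposited unit, and levels per kilobase use the annotated transcript length. Single values used exact permutation tests over 70 arrangements. Positions come from GENCODE vM21 (GRCm38) and promoters from RefSeq. Counting intervals cover counting error only.

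The genes and lists were chosen with earlier results of these data known. The rule for values in every library took called genes whose groups did not overlap, with a difference of 0.3 or more and an average of 50 or more, which gave Pcbd1, Hal, Glul and Cbs, and from each further list the 2 called genes of each direction whose adjusted p was smallest. Values in every library of other genes, and Srm, Sms, Pts, Spr, Afmid, Kyat1, Kyat3, Uroc1, Ftcd, Dld and Ahcy, were added after their values were seen. The promoters were likewise chosen after the values. Alternatives were other pseudocounts (0.5 and 8), no filter, a mean of at least 50, upper quartile and quantile scaling, depth as a covariate, a replicate block and leaving out each library. Some genes that the rule gave are left out of the text, while counts over lists and pairs include them.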

Additional observations from a re-analysis of the deposited data

Results flagged for a closer look

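In 6 of 84 groups of 4 libraries checked, 1 library lay apart from the other 3 by Dixon's criterion at the 95% level, where chance gives about 1 in 20. Tdo2 was 0.904 in Scr replicate 2 and 0 in the other Scr libraries, a value of about 1 read. Got2 was 7306 in siCasp8 replicate 4, with the next siCasp8 library at 6963. Gpt was 639 in siCasp8 replicate 2, with the next at 542. Bckdhb was 623 in siCasp8 replicate 4, with the next at 688. Pcca was 1430 in Scr replicate 3, with the next at 1339, and Cth was 226 in Scr replicate 1, with the next at 200.3.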

How the results depend on the processing

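No called difference of the genes named changed sign under any alternative, while 12 genes that were not called did in at least 1 setting. Tdo2 (in the 16 settings that tested it), Pcbd1, Hal, Glul, Glud1, Gldc, Cbs and Mat2a were called in every setting. Upper quartile scaling, which shifted the median of all genes by 0.10, gave 4475 higher and 1665 lower genes in all, 16 higher and 3 lower of the listed genes, and 6 lower further genes. With depth as a covariate 2615 genes were called in all (1206 higher, 1409 lower), 9 listed genes (6 higher) and 15 further genes (10 higher, 5 lower). A call lost in that fit need not mean a smaller difference. Slc25a15 went from 0.20 to 0.24, while Kyat3 went from 0.53 to 0.14. Leaving out 1 library at a time gave 4799 to 5743 called genes in all (2262 to 2765 higher, 2537 to 2978 lower), 12 to 16 listed genes (8 to 12 higher, 4 lower) and 28 to 36 further genes (20 to 26 higher, 7 to 10 lower). The 8 higher listed genes came without siCasp8 replicate 2. The cause of these shifts was not tested. Same-numbered libraries deviated together only weakly (r of 0.0785, 0.0442, 0.169 and 0.0554), yet 8 of 8 libraries correlated best with their own number. The main fit used no pairing, and whether the numbers pair the cultures was not tested. With the replicate block 6020 genes were called in all, 17 listed genes (without Asl, with Qdpr) and 37 further genes. Values near 1 read, as for Cps1, Otc, Arg1, Arg2, Nags, Hgd and Kmo, are too shallow for a comparison.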
